A study of Drosophila melanogaster with 2 samples.

Results

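The proteasome genes of Drosophila melanogaster were described in 2 RNA-seq libraries of sorted larval brain cells. A gene was taken as a member when its symbol in the deposited tables began with Prosalpha, Prosbeta, Rpn, Rpt, or Pros and a digit (the unrelated gene Prosap was left out). This rule found 41 of 14210 genes, of which 28 encode standard subunits of the particle and 13 are paralogs of such genes. The standard members comprised 7 genes of the alpha ring and 6 of the beta ring of the core particle, and 8 genes of the base and 7 of the lid of the regulatory particle. A further 5 standard subunits carry other names in the files and were therefore outside the rule: CG17331 (Prosbeta4), Tbp-1 (Rpt5), CG13349 (Rpn13), Mov34 (Rpn8) and CG13779 (Sem1). They are given beside the members, and are named as such.

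The proteasome degrades proteins that carry ubiquitin chains. Its core particle is a barrel of outer alpha rings and inner beta rings, and the protease sites lie inside it on Prosbeta1, Prosbeta2 and Prosbeta5. The regulatory particle caps the barrel: its base holds a ring of AAA ATPases (the Rpt subunits) that unfold substrates, and its lid removes the ubiquitin chain. In Drosophila many of these genes have duplicates that are known mainly from the male germ line, where some replace the standard subunit during sperm formation. Dividing neural stem cells rely on the ubiquitin-proteasome system to degrade cyclins and other short-lived proteins.

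The wild type library came from larvae of strain w1118 with UAS-CD8::GFP, and the osa RNAi library from larvae with UAS-CD8::GFP and an RNAi transgene against osa (Vienna line 7810). Both sets were late in the third instar, after 5 days at 25 °C, and both used worniu-Gal4 with ase-Gal80, which drives in type II neuroblast lineages. The osa gene encodes a subunit of the SWI/SNF chromatin remodelling complex. The sorted cells with high GFP were neuroblasts, intermediate neural progenitors and ganglion mother cells in wild type, and neuroblasts, neuroblast-like reverted cells and progenitors in osa RNAi. Cell makeup and genotype therefore cannot be told apart, and in such bulk samples neither can fewer cells of a type and less RNA per cell. There was 1 library per genotype, so no test between genotypes was possible and no difference below has a replicate check.

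Expression is given in FPKM as deposited, a fragment count divided by transcript length and library size, so that levels can be compared between genes. Where 2 values stand together, wild type comes first and osa RNAi second. The deposited 95% intervals cover no error between replicates. From their widths, taken as counting error, the reads behind the tables were put at 10114559 and 15707014. This reading of the widths was checked only for genes with 1 transcript. For genes with more, among them Prosalpha1, implied reads are uncertain, and over all genes above 0 they fell as low as 0.339 and 4.59e-06. The targeted gene osa was at 31.3 FPKM (30.3 to 32.3) and 15.6 FPKM (15.01 to 16.2). The 9 genes listed for type II lineages did not share a direction. With osa RNAi pnt (13.8 and 53.3 FPKM), insc (33.8 and 57.95 FPKM) and mira (192 and 302 FPKM) were at least 1.5-fold higher, and D (82.3 and 23.8 FPKM) was lower. Short of that, btd was at 10.8 and 15.8 FPKM and ase at 39.4 and 27.7 FPKM, with intervals apart, and wor (85.2 and 89.3 FPKM), dpn (61.97 and 67.3 FPKM) and erm (44.7 and 41.8 FPKM) had overlapping intervals. Of 6 neuronal markers, nerfin-1 and Snap25 were at least 2-fold lower with osa RNAi and Syt1 was at least 1.5-fold higher, and the list summed to 78.2 and 39.0 FPKM. The 6 glial markers summed to 291 and 249.8 FPKM, mostly from nrv2 (156 and 120.5 FPKM) and Eaat1 (126 and 115 FPKM), both lower with intervals apart, while gcm was at least 2-fold lower, loco at least 2-fold higher and repo at 0 and 0.709 FPKM. Of 6 haemocyte markers He (4.29 and 0 FPKM) was measured, with eater and nimC1 at 0. Of 15 stress response genes, 4 were at least 1.5-fold lower and 1 was higher, and their median difference in log2(FPKM + 1) was −0.25. The higher gene was Hsp70Bb (66.8 and 109 FPKM), whereas Hsp70Ab and Hsp70Ba were lower. How reads that match several Hsp70 genes were counted is not stated. Of all measured genes, 14.3% were at least 1.5-fold lower and 17.1% higher, and 6.79% and 7.78% at 2-fold. The part of the marker and stress gene shifts in the proteasome values was not tested.

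The standard proteasome genes were among the more abundant transcripts of both libraries, and the core particle stood above the regulatory particle. Without Prosalpha1, described below, and with CG17331, the 13 standard core genes had medians of 433 and 449 FPKM. The 18 genes of the regulatory particle other than CG13779 had medians of 139.8 and 147 FPKM. The core median was thus 3.09 and 3.06 times the regulatory median. Every one of these 13 core genes was above the 18 regulatory genes in wild type. In osa RNAi the exception was Pros28.1, which lay below Rpn12. Among all genes ordered by FPKM, the members of the core had median ranks of 266 and 273, and those of the regulatory particle 651 and 678.

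**Figure D1:**
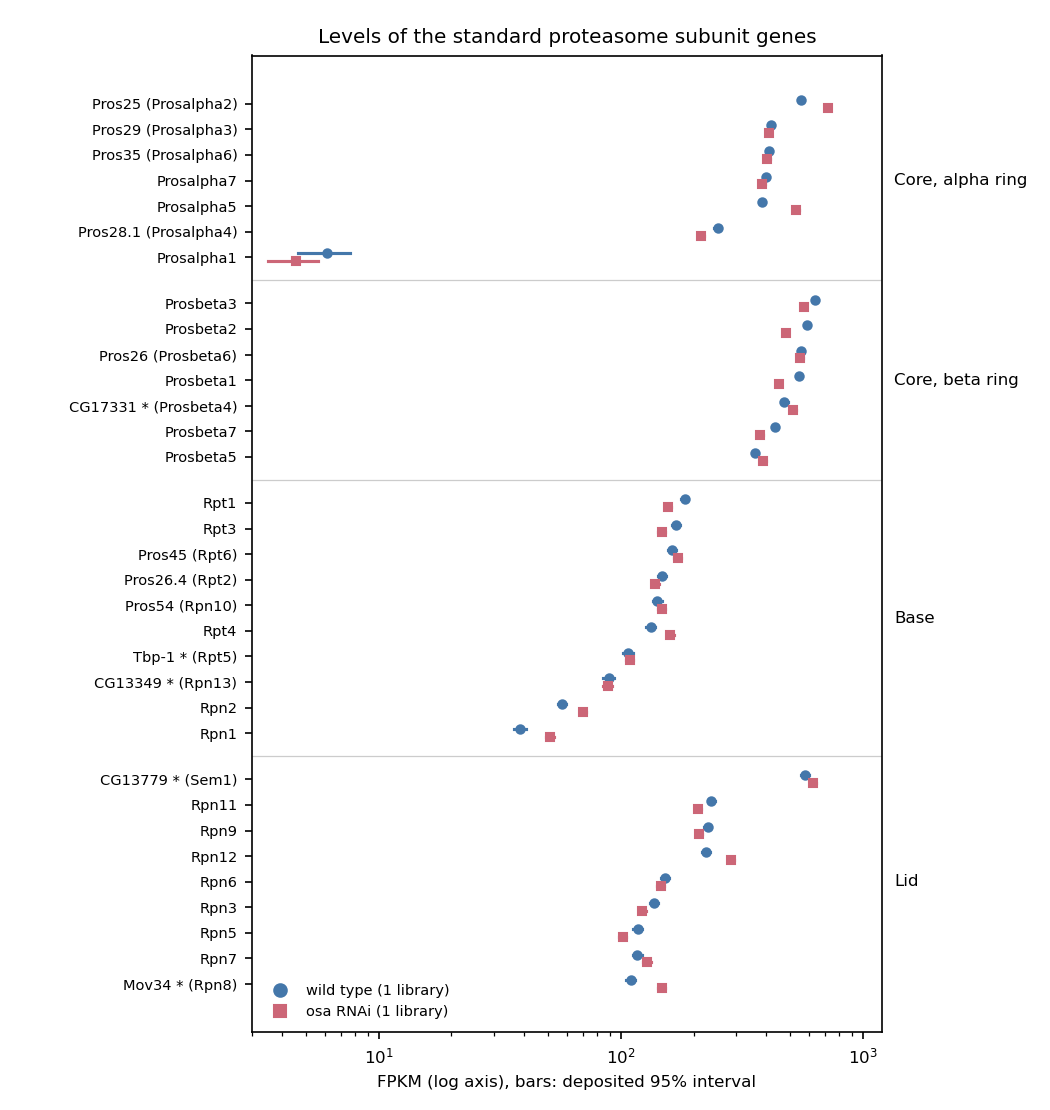
FPKM of the 33 standard proteasome subunit genes on a log axis, in wild type (circles) and osa RNAi (squares), 1 library each, with the deposited 95% intervals as bars; current subunit names stand in parentheses and an asterisk marks genes outside the name rule. Core genes other than Prosalpha1 lie between 215 and 716 FPKM, and regulatory genes other than CG13779 between 38.4 and 286 FPKM.

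The alpha ring forms the gate of the core. Among its 6 genes other than Prosalpha1 the highest was 2.21 and 3.34 times the lowest. The levels of 3 genes were close to each other in both libraries. Pros29 (alpha3) was at 417 and 409 FPKM. Pros35 (alpha6) was at 409.9 and 402 FPKM, and Prosalpha7 at 398 and 384 FPKM. These 3 genes had overlapping intervals in the libraries. Pros28.1 (alpha4) was the lowest of the 6 genes other than Prosalpha1, at 252 and 215 FPKM, a ratio of osa RNAi to wild type of 0.853 (0.815 to 0.892). The genes higher in osa RNAi were Pros25 (alpha2), at 555 FPKM (539.6 to 570.2) and 716 FPKM (702 to 730.5), and Prosalpha5, at 384 FPKM (372 to 396) and 531 FPKM (519 to 543). Their intervals did not overlap between the libraries, and the ratio of osa RNAi to wild type was 1.29 for Pros25 (1.248 to 1.33) and 1.39 for Prosalpha5 (1.33 to 1.44). The locus of Pros25 overlaps that of Aos1, which was at 361 FPKM in each library. In all, 12 standard members overlap another listed locus (Prosalpha1, Pros25, Prosbeta1, Prosbeta2, Prosbeta3, Rpt1, Pros26.4, Rpt4, Pros45, Rpn6, Rpn7 and Rpn9), and since the sources do not say whether counting used strand, their values are uncertain to that extent.

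Prosalpha1 stood far below its ring partners, although the alpha ring holds each subunit in equal number. It was at 6.14 FPKM (4.64 to 7.64) and 4.56 FPKM (3.499 to 5.62), with 67.3 and 74.2 implied reads and a ratio of 0.742 (0.534 to 1.03). The median of the other 6 alpha genes was 65.8 times its level in wild type and 88.9 times with osa RNAi. The gene lies at 2R from 3714808 to 3716181, in the coordinates of the files, for which the sources name no build. The gene CG30382, named Prosalpha1R in the reference annotation, begins 1736 bp after its end, at 2R from 3717918 to 3719276, and was listed at 0 in both libraries. In the BDGP6 annotation the gene pair lies on the same strand, each gene with 4 exons and a coding length of 732 bases. How reads that match both copies were counted is not stated, so the level of Prosalpha1 is uncertain, and the part of this in its low value was not tested. Prosalpha1 also overlaps phr (24.1 and 29.99 FPKM), which lies on the other strand.

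In the beta ring the 6 members ranged from 358 to 637 FPKM in wild type and from 378 to 572 in osa RNAi, the narrowest spread of the 4 subcomplexes as matched by the rule. The highest was 1.78 and 1.51 times the lowest. Prosbeta1, which carries the caspase-like site, was at 547 FPKM (531 to 562) and 449 FPKM (438 to 461). Prosbeta2, with the trypsin-like site, was at 586 FPKM (572 to 601) and 482 FPKM (471 to 493). Prosbeta5, with the chymotrypsin-like site, was instead higher in osa RNAi, at 358 FPKM (348 to 368) and 388 FPKM (379 to 397). The catalytic subunits thus did not share a direction as deposited: the ratio of osa RNAi to wild type was 0.822 for Prosbeta1 (0.791 to 0.853) and 0.822 for Prosbeta2 (0.795 to 0.850). Of the structural subunits, Prosbeta3 was at 637 and 572 FPKM, Prosbeta7 at 433 and 378 FPKM, and Pros26 (beta6) at 558 and 551 FPKM, the last with overlapping intervals. CG17331 (Prosbeta4), outside the rule, was at 474 and 515 FPKM. Summed over the 6 alpha genes other than Prosalpha1 and over the 7 beta genes, the alpha total was 0.672 and 0.797 of the beta total, a ratio within each library that does not depend on the scaling between them. Of these 6 alpha genes, only Pros25 and Prosalpha5 were higher in osa RNAi as deposited, so the change was not shared by the ring.

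The base holds the ATPase ring and the largest subunits of the particle. The 6 ATPase genes were at closely matched levels, from 107 FPKM (Tbp-1, outside the rule) to 184 FPKM (Rpt1) in wild type and from 109 FPKM (Tbp-1) to 172 FPKM (Pros45) in osa RNAi. Rpt1 was at 184 FPKM (177 to 190.1) and 157 FPKM (152 to 162), a ratio of 0.853 (0.815 to 0.894). Rpt3 was at 169 and 148 FPKM, Pros26.4 (Rpt2) at 149 and 139 FPKM, and Pros45 (Rpt6) at 164 and 172 FPKM. Rpt4 was the ATPase gene with the highest ratio, at 133 FPKM (128 to 139) and 160.4 FPKM (155 to 165). Its locus overlaps wuho (27.9 and 23.0 FPKM) and CG15896 (6.11 and 5.18 FPKM). The scaffold subunits were the lowest of the base. Rpn1, which also binds ubiquitin and ubiquitin shuttle proteins, was at 38.4 FPKM (36.3 to 40.5) and 50.9 FPKM (48.9 to 52.9), a ratio of 1.33 (1.24 to 1.42). Rpn2 was at 57.3 FPKM (54.998 to 59.6) and 69.7 FPKM (67.6 to 71.8). The ubiquitin receptor gene Pros54 (Rpn10) was at 142 and 148 FPKM, and the other receptor gene, CG13349 (Rpn13), at 89.1 and 88.6 FPKM, both with overlapping intervals.

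In the lid, Rpn11, the deubiquitinase that cuts the chain off the substrate, was at 236 FPKM (228 to 244) and 208 FPKM (202 to 215). Rpn9 was at 229 and 210.1 FPKM, Rpn6 at 152 and 146, Rpn3 at 138 and 123, Rpn5 at 117 and 102, and Rpn7 at 117 and 128 FPKM. Among these scaffold subunits Rpn6 had overlapping intervals, Rpn7 was higher in osa RNAi and the other 3 were lower. Rpn12 was the lid member with the highest ratio, at 225 FPKM (216 to 234) and 286 FPKM (277 to 294), a ratio of 1.27 (1.21 to 1.33). Outside the rule, Mov34 (Rpn8), the inactive partner of Rpn11, was at 110.1 FPKM (105 to 115) and 147 FPKM (143 to 152). CG13779 (Sem1), the smallest subunit, stood above the rest of the lid at 575 and 621 FPKM, and its locus overlaps Nuf2.

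Level followed coding length within the particle. Over the 32 standard genes other than Prosalpha1, Spearman's rho between coding length in the BDGP6 annotation and FPKM was −0.858 and −0.922. CG13779 has a coding length of 237 bases, whereas Rpn1 and Rpn2 have 2757 and 3087 bases. Inside the core alone rho was −0.451 and −0.610 over 13 genes, and inside the regulatory particle −0.587 and −0.803 over 19 genes. Over 6724 measured genes with a coding length it was −0.349 and −0.329. These are descriptions across genes of the same libraries, which are not independent, and FPKM is itself divided by transcript length. The order of the 32 levels was shared between the libraries, with a Spearman's rho of 0.953.

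Between genotypes the standard members differed little. Differences are osa RNAi less wild type in log2(FPKM + 1), a scale that understates changes of low genes, and a gene was counted as past a fold when its difference reached that fold, its mean FPKM was at least 1, its estimate was marked OK in both libraries and its intervals did not overlap. Of the 41 members 29 passed these filters on level and status, the 28 standard members and Rpt3R, and the standard members' differences ran from −0.36 (Prosalpha1) to 0.47 (Prosalpha5). None was at least 2-fold higher or lower, where 7.78% and 6.79% of 7144 measured genes were, and no test between genotypes stands behind any of these counts. None was at least 1.5-fold higher or lower either, beside 17.1% and 14.3% of all genes. At a lower threshold, a level higher by 25% or lower by the same fold, 4 standard members were higher (Pros25, Prosalpha5, Rpn1 and Rpn12) and none was lower, beside 28.0% and 23.2% of all genes. Abundant genes differed less in general: of 2177 genes whose mean reached 35 FPKM, 8.18% were at least 1.5-fold higher and 6.02% lower, and 21.9% and 15.6% passed the 25% threshold. Of the 27 members in that range, 0 passed at 1.5-fold, 4 were higher at 25% and 0 were lower. No member was in the authors' deposited table of 15 genes at a false discovery rate of 0.01. With 14210 genes in all, so short a list says little about the 41 members.

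With 1321 or more reads behind each standard member other than Prosalpha1 in wild type, small differences still left intervals apart. At any size, 8 standard members were higher with intervals apart and 11 were lower, beside 35.9% and 30.0% of all genes. The median difference was −0.05 for the 13 core members (Prosalpha1 included, CG17331 not), 0.06 for the 8 base members and −0.12 for the 7 lid members, against 0.04 for all measured genes. Within the core it was −0.03 for the alpha ring and −0.18 for the beta ring. Of the 6 beta members 5 were below 0, beside 3348 of 7144 measured genes. With CG17331, whose difference was 0.12, the beta ring median was −0.15 over 7 genes. These small values depend on the scaling between the libraries: with the upper quartiles set equal, the median of all genes moved from 0.04 to 0.15, the core median became 0.06, the lid median −0.01 and the base median 0.18. Scaling by the median ratio of the genes moved them the other way, to −0.10 for the core, −0.17 for the lid and 0.02 for the base, with all genes at −0.005. With intervals apart, 9 members were higher and 11 lower as deposited, 14 and 5 with equal upper quartiles, and 7 and 14 with the median ratio. The core and lid medians were below the median of all genes under each of these scalings. Each scaling divides all osa RNAi values by the same factor, so it could hardly change this order and is no check of it. The base stood close to it: with Tbp-1 and CG13349 included its median was 0.04 over 10 genes, and that of the lid with Mov34 and CG13779 was −0.05 over 9 genes.

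**Figure D2:**
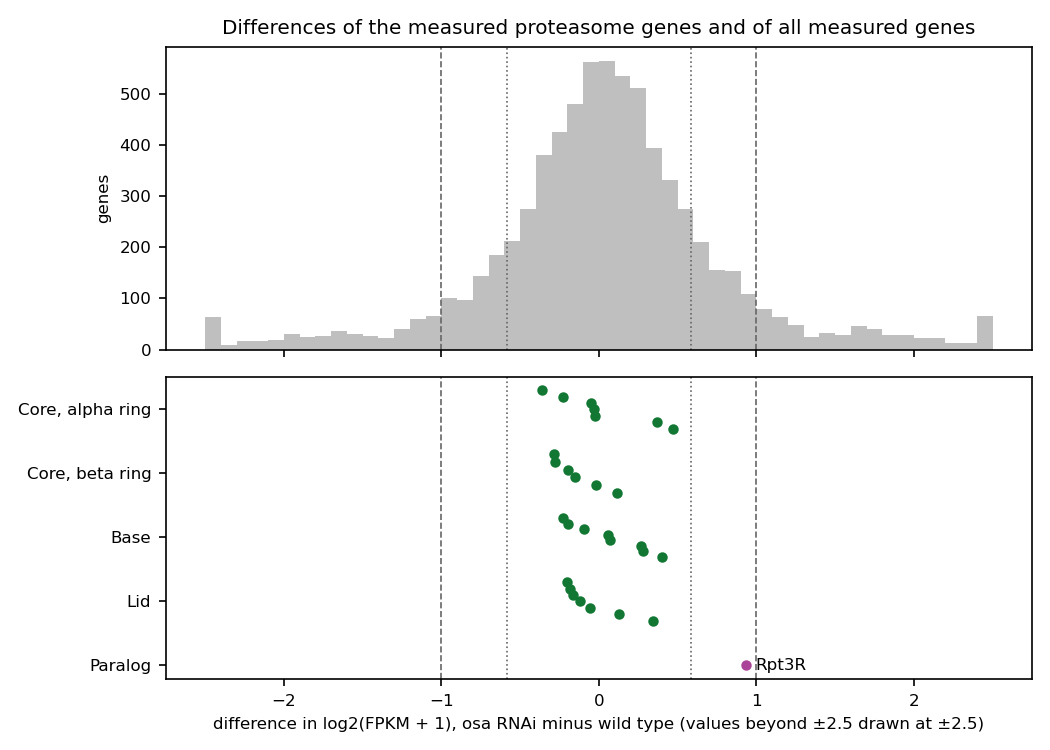
Difference in log2(FPKM + 1), osa RNAi minus wild type, for 7144 measured genes (histogram) and for the 29 measured members by subcomplex (points), with dotted lines at 1.5-fold and dashed lines at 2-fold. The standard members lie between −0.36 and 0.47, inside the dotted lines, and the paralog Rpt3R at 0.93 lies between the dotted and dashed lines.

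Nearly all paralogs were listed at 0. Of the 13 matched paralogs, 11 were at 0 in both libraries. They were Prosalpha3T, Pros28.1A and Pros28.1B (duplicates of alpha4), Prosalpha6T, Prosbeta2R1, Prosbeta4R1, Prosbeta4R2, Prosbeta5R, Rpt4R, Rpt6R and Rpn12R. The partner genes of these paralogs were at 133 FPKM or more in both libraries. Prosbeta2R2 was listed at 0 and at 0.213 FPKM with osa RNAi, from 4 implied reads. Outside the rule, CG31742 (Prosbeta5R2) and CG6789 (Rpn13R) were also at 0 in both.

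A value of 0 here does not show that a transcript was absent. A paralog at 1% of its partner, if taken to have the same transcript length, would have had 23.4 to 63.1 reads in the first library. In the other it would have had 36.1 to 78.9. Of genes with 20 to 40 expected reads, judged from the other library, 35.3% and 40.6% had a value of 0, and of those with 40 to 80 expected reads 11.7% and 24.9%, counts that include genes whose level differs between the libraries. The 13 mitochondrial genes of the tables, which every cell uses, were also at 0 in both libraries. What gave these zeros was not tested, so a paralog at 0 is given as listed at 0 and no upper limit on its level is drawn.

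Rpt3R was the exception among the paralogs. This duplicate of the ATPase gene Rpt3 was at 18.7 FPKM (16.5 to 20.8) and 36.6 FPKM (34.1 to 39.0), with 302 and 909 implied reads. The intervals were apart, and the ratio of osa RNAi to wild type was 1.96 (1.72 to 2.23). It was the single member at least 1.5-fold higher, and on the log2(FPKM + 1) scale its difference of 0.93 was short of 2-fold. Over the same libraries Rpt3 was at 169 FPKM (163 to 176) and 148 FPKM (143 to 153), lower in osa RNAi. Rpt3R made up 9.92% and 19.8% of the summed FPKM of this pair. With the upper quartiles set equal its difference was 1.05, past 2-fold.

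Rpt3R lies at 3R from 5580455 to 5581921 in the coordinates of the files and overlaps no other listed locus. Its nearest neighbours did not show a difference of this size. CG16908, 151 bp before it, was at 7.84 and 8.48 FPKM, and CG8412, 293 bp after it, at 5.39 and 4.02 FPKM. Whether reads of Rpt3 and Rpt3R could be exchanged in counting was not tested. Both genes have 3 exons, with coding lengths of 1239 bases in Rpt3 and 1215 in Rpt3R.

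Genes known from the male germ line were mostly low or at 0 in these libraries. Of 21 listed genes, 10 were at 0 in both, among them the testis meiotic arrest genes aly, comr, sa and nht and the sperm genes Mst87F and dj. Other meiotic arrest genes of the list were not: can was at 5.52 and 5.38 FPKM, mia at 2.02 and 1.56, and topi at 0.108 and 2.02. The list summed to 25.7 and 34.4 FPKM. Of 10 measured genes, 4 were at least 2-fold higher in osa RNAi (vas, bam, topi and zpg) and 2 were lower (bgcn and bol), beside 7.78% and 6.79% of all genes. However, vas, bam and topi were below 1 FPKM in wild type, and bgcn and bol below 1 FPKM in osa RNAi. They passed the minimum mean of 1 FPKM only through the library where they were higher, so the filter favoured such differences. The shares of all genes are not matched for level, and no excess is drawn from these counts. vas was listed at 0 and at 3.71 FPKM, and bam was at 0.506 and 5.20 FPKM. The part of such transcripts in the level of Rpt3R was not tested.

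**Figure D3:**
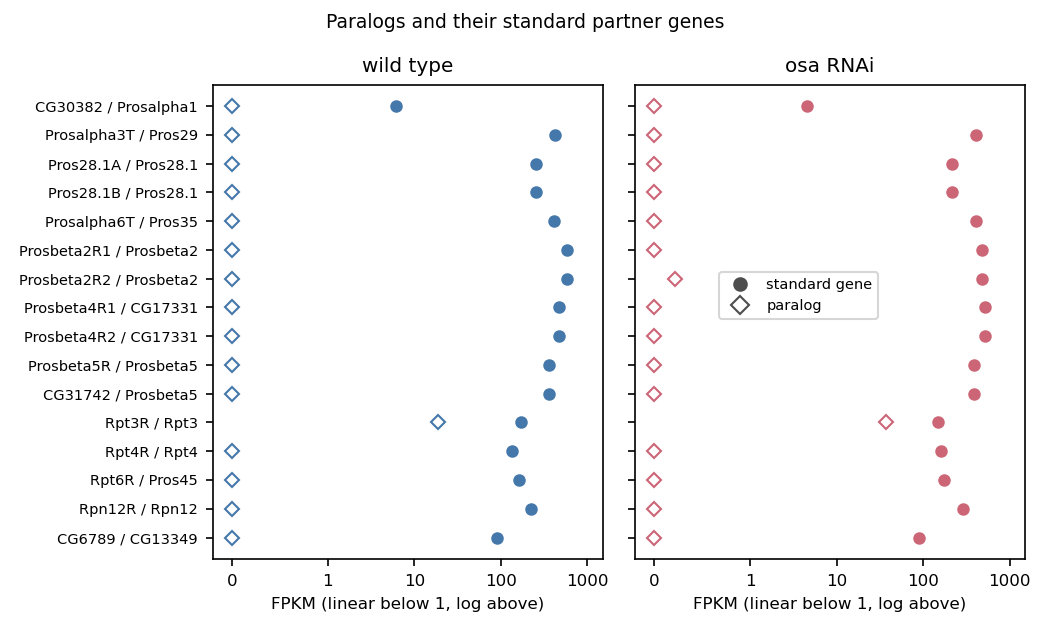
FPKM of 16 paralogs (open diamonds) and their standard partner genes (filled circles) in wild type (left) and osa RNAi (right), on an axis that is linear below 1 and logarithmic above. Rpt3R, at 18.7 and 36.6 FPKM, and Prosbeta2R2 in osa RNAi, at 0.213 FPKM, are the paralogs above 0.

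The paralogs differ from their partners in position and structure. In the BDGP6 annotation 8 of the 13 matched paralogs have fewer exons than the partner gene, 5 have as many and 0 have more, and 4 of them have 1 exon. Of the 13, 8 lie on another chromosome arm than the partner. All 4 X-linked standard members (Pros28.1, Rpt3, Rpt4 and Pros45) have such a paralog and in each case it is autosomal, compared with 5 of the 24 autosomal standard members. With the genes outside the rule, these counts are 4 of 4 and 7 of 29, leaving out the tandem copy of Prosalpha1. These counts describe the annotation and were not tested.

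Few other genes of the pathway passed 1.5-fold between the libraries. Of 13 measured genes for assembly, activation and substrate delivery, 1 was at least 1.5-fold higher and 0 were lower, and the median difference was −0.02. That gene was Ubqn, which encodes a ubiquitin shuttle protein, at 28.12 and 44.8 FPKM. The AAA ATPase gene TER94, whose product extracts ubiquitinated proteins, was at 130.02 and 181 FPKM. The proteasome-binding regulator gene PI31 was at 85.7 and 109.8 FPKM, and cnc, whose Nrf factor activates proteasome genes, at 5.26 and 6.81 FPKM. The core assembly chaperone gene Pomp was at 306 and 349 FPKM, and the activator gene REG at 425 and 392 FPKM.

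Of 25 measured genes for ubiquitin and its conjugation, 1 was at least 1.5-fold higher and 0 were lower, with a median of 0.02. It was the cullin gene Cul-2, at 39.5 and 65.4 FPKM. The polyubiquitin gene Ubi-p5E was at 49.04 and 67.998 FPKM, the F-box gene slmb at 16.5 and 22.9, and the conjugating enzyme gene UbcD4 at 116 and 156 FPKM. These shares lie beside the 17.1% of all genes that were 1.5-fold higher and the 14.3% that were lower. Of genes whose mean reached 35 FPKM, 8.18% were higher and 6.02% lower, so such low counts are not particular to these lists. The conjugation genes named above, with the largest differences of their list, were all higher in osa RNAi. At the 25% threshold 6 genes of that list were higher and 3 lower (Cul-5, ben and eff), beside 28.0% and 23.2% of all genes.

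The COP9 signalosome, which removes Nedd8 from cullins, has subunits that each resemble a lid subunit, so the levels of the complexes were set side by side. In all 8 pairs the lid gene was above its signalosome counterpart in both libraries. The ratio of lid to signalosome gene ran from 1.099 (Mov34 and CSN6) to 3.20 (Rpn7 and CSN1b) in wild type, with a median of 1.65. In osa RNAi it ran from 1.11 (Rpn6 and alien) to 2.73 (Rpn9 and CSN7), with a median of 1.59. None of the 8 measured signalosome genes passed 1.5-fold on the log2(FPKM + 1) scale, and their median difference was 0.08. At that fold 17.1% of all genes were higher and 14.3% lower, and 8.18% and 6.02% of those whose mean reached 35 FPKM. CSN1b lay at the 1.5-fold threshold, at 36.6 and 55.2 FPKM, a plain ratio of 1.51 (1.39 to 1.64) and a difference of 0.58. The others with the largest differences were CSN8, at 170.5 and 251 FPKM, CSN7 at 99.01 and 77.0 FPKM, and alien (CSN2) at 113 and 132 FPKM.

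**Figure D4:**
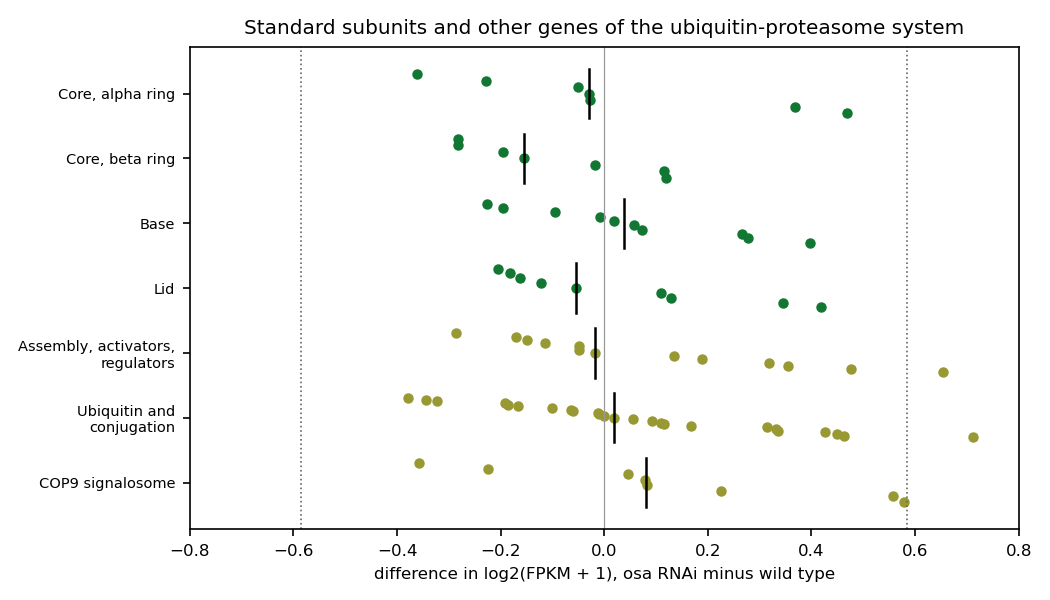
Difference in log2(FPKM + 1), osa RNAi minus wild type, of the 33 standard subunit genes by subcomplex and of measured genes of 3 other lists, with list medians, genes outside the name rule included, as black bars and dotted lines at 1.5-fold. Ubqn (0.65) and Cul-2 (0.71) lie past the dotted line, and the standard subunit genes lie inside it.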

How the data were processed

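Per the labels' protocols, polyA RNA of sorted cells was made into strand-specific libraries with dUTP. The authors deposited 1 table per library with FPKM and interval bounds for each gene, per the file headers. Tools named, with no role, by the submitters' processing notes are Cufflinks 1.3.0, TopHat 1.4.1, BWA 0.6.1, DESeq 1.8.3 and HTSeq. The genome build and the handling of strand and of reads with several matches are not stated in the sources. A further table deposited by the authors, with adjusted p-values from DESeq per its header, was searched for members.

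The members and lists were chosen with earlier results of these data known. Tables were joined by gene identifier, and start positions, which count from 0 in the files, were raised by 1. Implied reads are (2 × FPKM / interval half-width) squared, whole within 0.02 for 92.9% of 834 (wild type) and 93.6% of 998 (osa RNAi) single-transcript genes below 50 reads. Ratios of FPKM have 95% intervals from these reads, covering counting error only. The pseudocount was 1. With 1 library per genotype no test between genotypes was run. Current symbols, exons and coding lengths came from the BDGP6 annotation and RefSeq names, and no coordinates were joined. Folds with intervals were given for the 5 highest and 5 lowest members with a mean of at least 5 FPKM, for members past 1.5-fold and for Rpt3R, and Prosbeta2R2, at 0 in wild type, has no fold. Of each other list up to 4 measured genes with the largest differences were named. The values of Pomp, REG and overlapping or neighbouring loci go beyond this rule and were chosen after the values were seen, as was the 35 FPKM minimum. Of 15 regulator symbols 13 were found and of 27 conjugation symbols 26. Alternatives were other pseudocounts, scalings, FPKM filters, fold thresholds, interval and status rules, and leaving out overlapping loci. Python 3.11.15 and pandas 2.3.3 were used.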

Additional observations from a re-analysis of the deposited data

How the results depend on the processing

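No paired analysis was possible because each genotype had 1 library, and leaving out a library was not possible for the same reason. No member was at least 2-fold lower under any alternative run. The count at least 2-fold higher, 0 as deposited, was 1 with equal upper quartiles. At lower thresholds 1 member was higher at 1.5-fold and 5 at 25%. A lower threshold can only add members, so these counts are no check of the 2-fold result. The count at least 1.5-fold higher, 1 as deposited, was 0 with a mean of at least 35 FPKM, a filter chosen after seeing the data that leaves out Rpt3R. Members with intervals apart, 9 higher and 11 lower, were 14 and 5 with equal upper quartiles and 7 and 14 with the median ratio, and 6 were lower among the 17 members left without overlapping loci. The median difference of the core, −0.05, was 0.062 with equal upper quartiles. That of the base, 0.06, was 0.18 with equal upper quartiles and 0.17 over the 4 members without overlapping loci. That of the lid, −0.12, was −0.0089 with equal upper quartiles and −0.036 as a mean over members. The scaling changes come from its construction, which divides osa RNAi values by 0.924. The cause of the other moves was not tested, apart from the smaller number of members. The 11 members chosen by the naming rule, among them Prosbeta2R2 with no fold and 1 alternative, had 75 alternatives. Of these, 67 moved the difference by less than its counting interval or not at all. A further 8 moved it by more, and 0 changed its sign. Filters on level, status and overlap cannot change the difference of a single gene, so those alternatives were the same by construction. All 8 larger moves came with equal upper quartiles, which left Prosalpha1 and Rpt3R within their counting intervals. Depth limits Prosbeta2R2, with 4 implied reads, and widens the interval of Prosalpha1.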
